A study of Mus musculus with 32 samples.

Results

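The 7 genes of MHC class II antigen presentation described here were taken by symbol from the counts table: Cd74, H2-Aa, H2-Ab1, H2-Eb1, H2-DMa, H2-DMb1 and Ciita. The table holds 32544 genes, and all 7 passed the low-count filter in each of the 13 comparisons. Kidney cortex RNA was sequenced from 32 mice of 25 weeks that carried the Col4a3tm1Dec allele on C57BL/6J. Control mice were Col4a3+/-, so they carried 1 disrupted copy, and Alport mice were Col4a3-/-. Mice received vehicle or nicotinamide riboside (NR), a precursor of NAD+, and each combination of sex, genotype and treatment held 4 mice. The comparisons ask how the class II genes differ between Alport and control mice, and between NR-treated and vehicle-treated mice of each genotype and sex.

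MHC class II molecules are pairs of an alpha and a beta chain that carry peptides from endosomes to the surface of antigen-presenting cells, where CD4+ T cells read them. The invariant chain, made from Cd74, blocks the peptide groove. Cathepsins trim this chain to the fragment CLIP, and H2-DM then exchanges CLIP for peptide. Ciita is the coactivator that turns these genes on; it binds no DNA itself and works through factors bound to the X and Y boxes of class II promoters. In the kidney, macrophages and dendritic cells are the usual sources, and tubular epithelium can be induced to make class II by interferon gamma.

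H2-Aa and H2-Ab1 encode the chains of I-A, H2-Eb1 the beta chain of I-E, and H2-DMa and H2-DMb1 the chains of H2-DM. C57BL/6 mice lack a working I-E alpha chain, and the pseudogene row H2-Ea-ps held 0 to 7 counts per mouse. In the GRCm38 annotation (GENCODE release M21), these 5 genes lay within 197 kb of chromosome 17 (34119541 to 34316674). Ciita lay at chr16:10480059-10528418.

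The promoters of H2-Aa and H2-Eb1 are shown because the letters of the X and Y boxes, through which Ciita works, can be seen in them. The RefSeq promoter table for GRCm38.p6 covered 4 of the 7 genes, and H2-Ab1, Ciita and Cd74 were not in it. The 80 bases from 110 to 31 upstream of the start are given in the direction of the gene for H2-Aa (chr17:34287854-34287933, minus strand) and H2-Eb1 (chr17:34305757-34305836, plus strand), with the X core CTNGNAAC and the Y box TGATTGG in capitals:
H2-Aa: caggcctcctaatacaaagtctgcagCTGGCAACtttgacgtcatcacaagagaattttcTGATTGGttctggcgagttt
H2-Eb1: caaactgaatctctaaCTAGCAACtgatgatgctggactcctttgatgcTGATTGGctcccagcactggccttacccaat

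H2-Aa held 26 bases between the boxes and H2-Eb1 held 25. The H2-DMb1 window had the same arrangement with 26 bases between them, with its X core starting 97 bases upstream, and is not printed because the annotation places those bases in the first exon. Both windows listed for H2-DMa held neither string on either strand. Searched on both strands over the 250 bases before and 50 after each start, the X core letters occurred in 13.2% of 32851 promoter windows, the Y box letters in 7.82%, and both in 1.07%. The X core followed by the Y box on the gene's strand with 17 to 30 bases between was found in 11 windows (0.0335%) of 9 genes, which included these 3 members and H2-Ob. The letters were written down after these promoters had been read, so the counts are a description and show no binding.

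Total counts were 16621944 to 27778797 per mouse. Levels are given as CPM, the reads of a gene relative to the library's total scaled by the trimmed mean of M values (TMM), and tests are edgeR's quasi-likelihood F test with Benjamini-Hochberg adjustment over all genes tested and a threshold of 0.05. Mice differed by more than counting error within every group. Col4a3 was 49 to 83.7 CPM in the 16 Alport mice and 59 to 200 CPM in the 16 controls, a range that was 105 to 200 without NR-treated males. NR-treated male controls were at 59 to 160 CPM, so Col4a3 did not separate all of them from Alport mice. Ddx3y separated the sexes in all 32 mice. In bulk tissue, fewer cells of a type and less RNA per cell cannot be told apart.

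Every class II gene was far higher in vehicle-treated Alport mice than in vehicle-treated controls. In males, Cd74, a gene on chromosome 18, was 97.1, 103, 99.1 and 108 CPM in controls and 868, 862, 919 and 707 CPM in Alport mice. The groups were separated by a wide gap, and the controls lay close together. Cd74 rose 8.72-fold (log2 fold change 3.12, SE 0.11, edgeR adjusted p = 1.57e-09). In females, Cd74 was 98.5, 115, 232 and 153 CPM in controls and 1080, 606, 939 and 870 CPM in Alport mice. Again no control reached an Alport mouse, but both groups spread more than in males. The female rise was 5.97-fold (log2 fold change 2.58, SE 0.29, edgeR adjusted p = 0.000181).

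**Figure D1:**
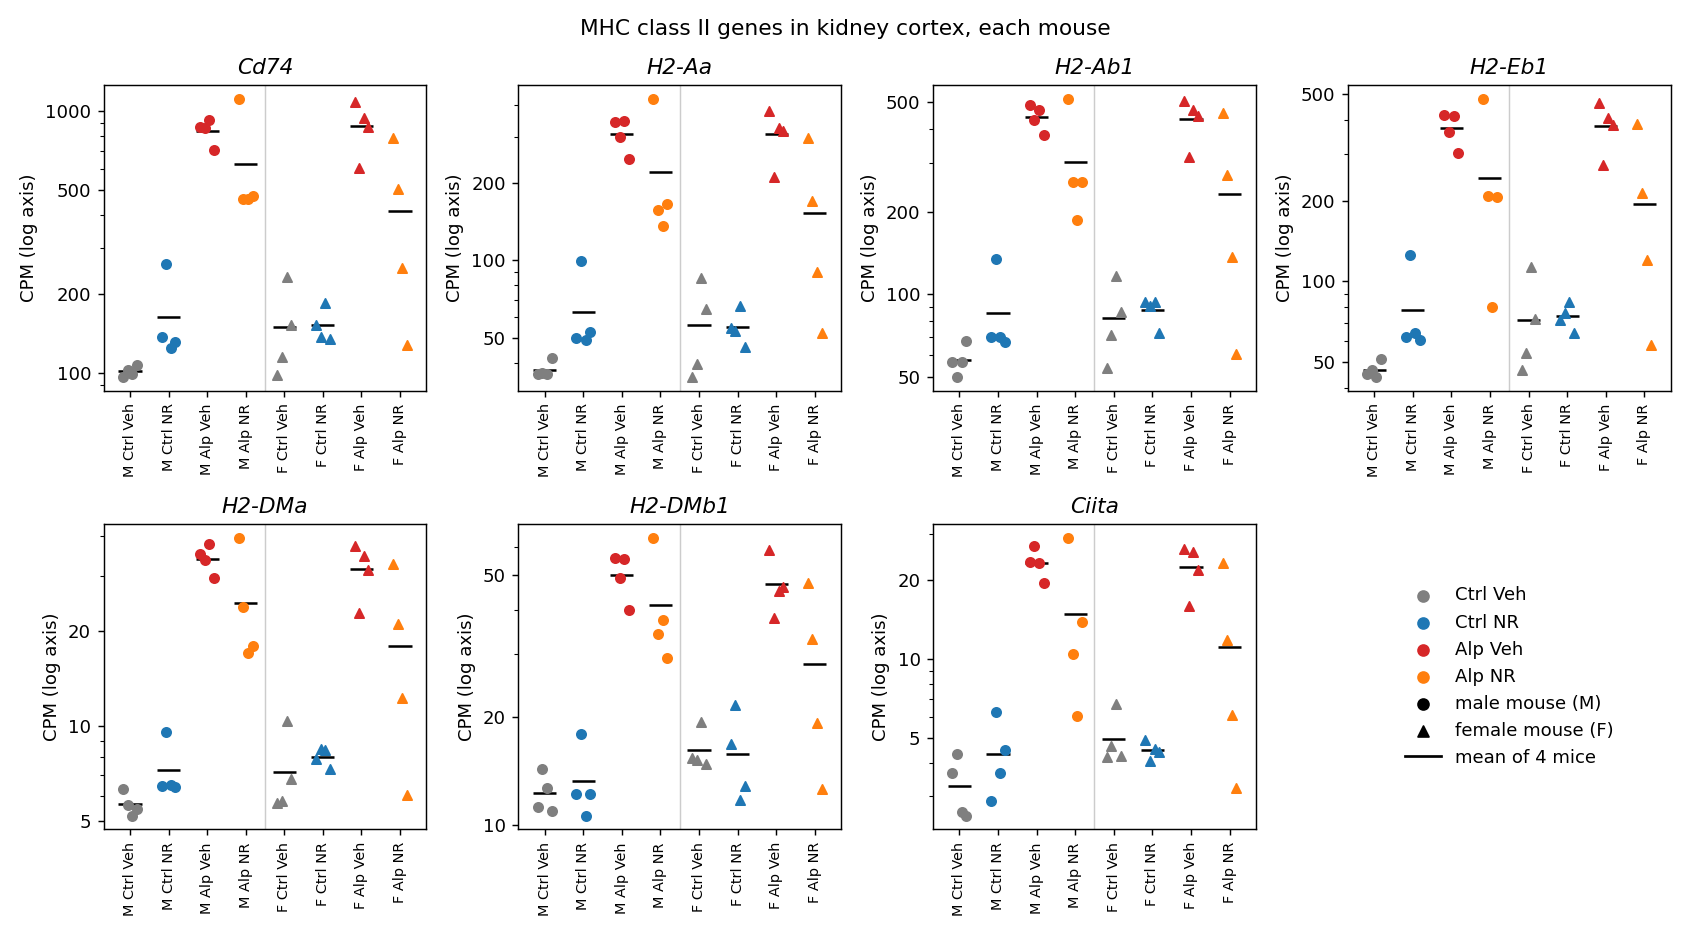
TMM-scaled CPM on log axes for each of the 7 genes in 8 groups, with 1 point per mouse (circles, males; triangles, females) and a line at the mean of 4 mice. Vehicle-treated Alport mice (red) lie above vehicle-treated controls (grey) in every panel, while NR-treated Alport mice (orange) are widely spread, with mouse 1 highest in both sexes.

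The chains of I-A and I-E followed the invariant chain. H2-Aa was 36, 36.3, 36 and 41.6 CPM in vehicle-treated male controls and 346, 300, 348 and 248 CPM in vehicle-treated male Alport mice, an 8.76-fold rise (log2 fold change 3.13, SE 0.12, edgeR adjusted p = 1.97e-09). H2-Ab1 rose 8.07-fold in males, from 57.9 ± 7.34 to 441 ± 46.9 CPM (SD, n = 4 mice each), and H2-Eb1 rose 8.49-fold, from 46.7 ± 3.19 to 375 ± 54 CPM. In females, H2-Aa was 35.2, 39.6, 85.1 and 64.3 CPM in controls and 381, 211, 328 and 319 CPM in Alport mice. The female folds were 5.65 for H2-Aa, 5.42 for H2-Ab1 and 5.47 for H2-Eb1.

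Of the peptide exchange factor, H2-DMa and H2-DMb1 rose less, while its second beta chain gene H2-DMb2, given below, rose more from a very low level. H2-DMa was 6.31, 5.61, 5.21 and 5.47 CPM in vehicle-treated male controls and 35.2, 33.6, 37.7 and 29.4 CPM in vehicle-treated male Alport mice, a 6.36-fold rise, and rose 4.5-fold in females. H2-DMb1 was 11.2, 14.3, 12.7 and 10.9 CPM in male controls and 55.9, 49.1, 55.4 and 40 CPM in male Alport mice, a 4.3-fold rise that was the smallest of the 7 genes. In females H2-DMb1 rose 2.98-fold, from 16.2 ± 2.13 to 47.1 ± 8.63 CPM, again the smallest. Of the 31-base words in H2-DMb1 transcripts, 31.4% also occur in its neighbour H2-DMb2, so reads can be split between the pair. For the other 6 genes the share found in any other gene was at most 1.41%.

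Ciita was the least abundant. It was 3.66, 4.33, 2.61 and 2.52 CPM in vehicle-treated male controls and 23.5, 27.1, 23.3 and 19.5 CPM in vehicle-treated male Alport mice. The fold was 7.5 in males (log2 fold change 2.91, SE 0.17, edgeR adjusted p = 5.56e-08) and 4.65 in females (log2 fold change 2.22, SE 0.2, edgeR adjusted p = 3.11e-05). The coactivator passed the test beside its target genes, on counts of 53 to 101 in the male controls.

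Over the group, 7 of 7 passed in males, where 26.8% of 15286 genes were higher by the same test, and 7 of 7 passed in females, where 23.9% of 15709 genes were higher. The median log2 fold change was 3.01 in males and 2.44 in females, beside 0 over all genes in each sex. All 7 had no overlap between the 4 and 4 mice in either sex, which held for 22.3% of genes in males and 20.7% in females in this direction. The count of 7 held in both sexes under every alternative run. The female estimate lay below the male one for each gene. The sex-genotype interaction, from a separate fit of the vehicle-treated mice of both sexes, was −0.72 to −0.53 log2 units. But it called 0 of 7 (0.495% of genes called, edgeR adjusted p = 0.218 to 0.482). Unadjusted, 4 of 7 had p under 0.05 for that interaction in edgeR, beside 11.8% of genes, 5 in DESeq2 and 2 in limma-voom, with 0 called in each.

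Levels can be ordered between genes only per length. In vehicle-treated male controls, CPM per kilobase of annotated exon was 60.8 ± 2.8 for Cd74, 24 ± 1.64 for H2-Eb1, 22.5 ± 2.86 for H2-Ab1, 9.87 ± 0.721 for H2-Aa, 7.32 ± 0.94 for H2-DMb1, 1.64 ± 0.136 for H2-DMa and 0.344 ± 0.0911 for Ciita (SD, n = 4 mice each). H2-Eb1 and H2-Ab1 did not differ beyond their spread. In vehicle-treated male Alport mice the values were 500 ± 54.6 for Cd74 and 2.44 ± 0.326 for Ciita. The lengths join all annotated exons of a gene, so a gene with long rarely used exons is set too low.

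**Figure D2:**
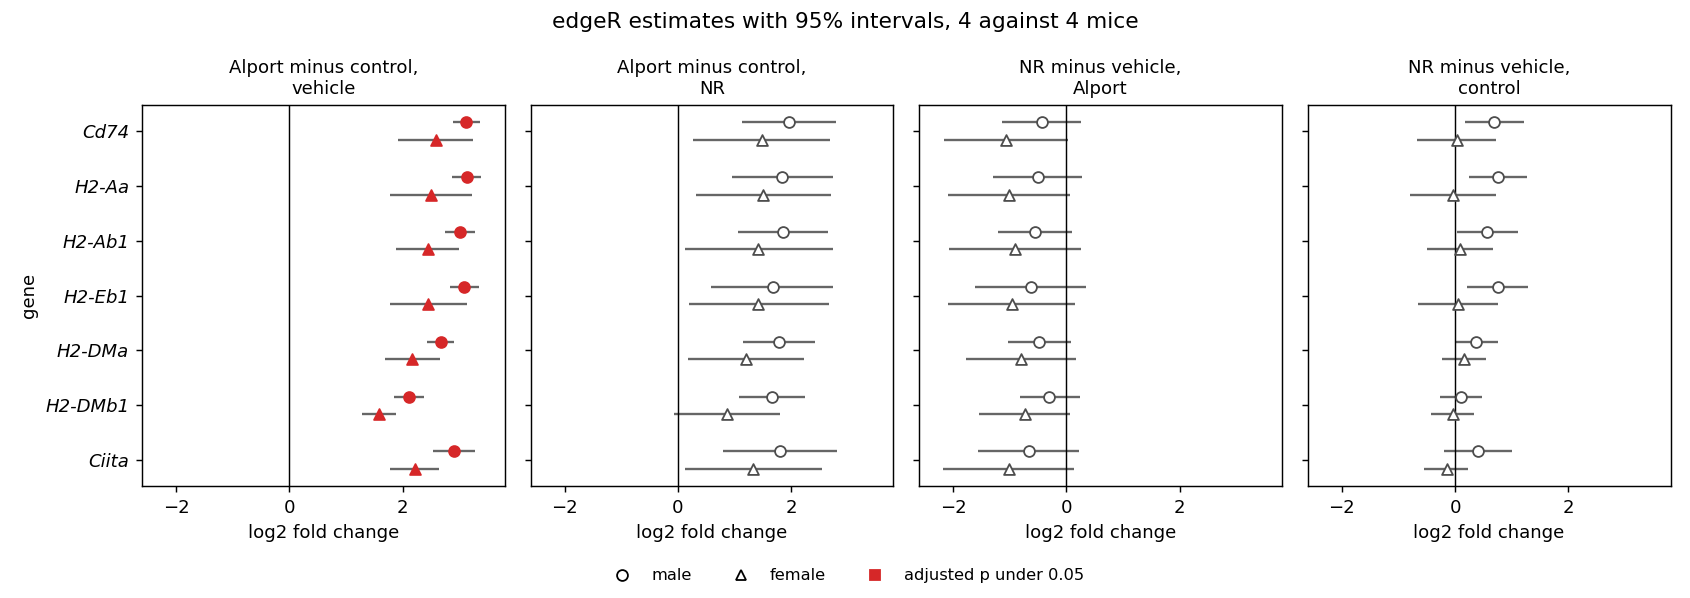
Log2 fold changes with 95% intervals from edgeR for the 7 genes in 8 comparisons of 4 against 4 mice (circles, males; triangles, females; red, adjusted p under 0.05). Only the vehicle comparison of Alport with control mice has filled symbols, and the intervals are widest where NR-treated Alport mice enter.

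NR-treated Alport mice had lower mean levels of all 7 genes than vehicle-treated Alport mice in both sexes, but no gene passed the test. In males, Cd74 was 1110, 460, 463 and 474 CPM with NR, beside 868, 862, 919 and 707 CPM with vehicle. Mouse 1 lay above every vehicle-treated mouse and the other 3 below all of them, a pattern shared by each of the 7 genes. The log2 fold change of Cd74 was −0.44 (95% interval −1.13 to 0.26, edgeR adjusted p = 0.943). Over the 7 genes it was −0.67 to −0.3, with 0 of 7 called and 0% of 15500 genes called. None of the 7 was without overlap, beside 1.46% of genes in this direction. No member had an unadjusted p under 0.05 in edgeR, where 5.01% of genes did, or in DESeq2, and 3 did in limma-voom, with 0 called in each.

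The male result turned on NR-treated Alport mouse 1. Without it, 5 of 7 genes passed (Cd74, H2-Aa, H2-Ab1, H2-DMa and Ciita), the estimates over the 7 genes ran from −1.22 to −0.58, and 2.39% of genes were called. The adjusted p-values for that set of mice were 0.0285 to 0.0864 in edgeR. This mouse also had the highest macrophage marker sum of all 32 mice, 1250 CPM over 12 genes, and its part in the result beyond its removal was not tested.

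In females, the NR-treated Alport mice formed a long range. Cd74 was 785, 502, 253 and 128 CPM with NR and 1080, 606, 939 and 870 CPM with vehicle. Mouse 1 was highest and mouse 4 lowest for each of the 7 genes, and mouse 4 lay below the highest vehicle-treated female control for all of them. For every gene, 3 of the 4 NR-treated mice were below all vehicle-treated Alport mice, and mouse 1 was not. The log2 fold change of Cd74 was −1.06 (95% interval −2.16 to 0.03, edgeR adjusted p = 0.313), and the others were −1.02 to −0.74. None of the 7 was without overlap, beside 3.95% of genes in this direction. None was called, where 0.458% of 15712 genes were, and 0 had an unadjusted p under 0.05 in edgeR (16.5% of genes), 2 in DESeq2 and 7 in limma-voom, with 0 called by each. Shares of all genes with an unadjusted p under 0.05 are those of edgeR throughout, and none is given for DESeq2 or limma-voom.

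H2-Eb1 in NR-treated male Alport mice was 481, 209, 80.4 and 207 CPM, and Ciita was 29.1, 10.4, 6.07 and 13.8 CPM. Mouse 3 was lowest for both genes, and for H2-Eb1 it stood out against the other chains of the same animal. Its log2 ratio of H2-Eb1 to H2-Aa counts was −0.76, whereas the other 31 mice had 0.15 to 0.53. Its log2 ratio of H2-Ab1 to H2-Aa was 0.46, within the 0.21 to 0.84 of the others. Its log2 ratio of H2-Aa to Cd74 was −1.76, below the −1.57 to −1.25 of the others. Mouse 3 was the lowest of its group for 5 of the 7 genes.

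When both sexes were fitted together with sex as a covariate, a choice made after the data were seen, the 16 Alport mice gave log2 fold changes with NR of −0.83 to −0.51. Each of the 7 genes had an unadjusted p of 0.0239 to 0.0389 in edgeR, where 19% of genes had one under 0.05, and 0 of 7 passed after adjustment, with 1.41% of 16189 genes called.

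With NR in both genotypes, Alport mice still had higher means than controls. In males, Cd74 was 138, 260, 125 and 132 CPM in NR-treated controls against 1110, 460, 463 and 474 CPM in NR-treated Alport mice. The log2 fold changes of the 7 genes were 1.66 to 1.96 in males (edgeR adjusted p = 0.074 to 0.109) and 0.86 to 1.51 in females (edgeR adjusted p = 0.0653 to 0.153). None was called in males, where 0% of genes were, or in females, where 27.5% were. In males 5 of 7 genes had no overlap, beside 7.73% of genes in this direction, and in females 0 of 7, beside 13.1%. Unadjusted, 7 of 7 in males and 6 of 7 in females had p under 0.05 in edgeR, beside 21.6% and 39.2% of genes. DESeq2 called 7 in males (9.28% of genes) and 5 in females (31.4%), and limma-voom called 0 in both, where 7 and 3 had an unadjusted p under 0.05.

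This comparison depended on the fit and on single mice. A single fit of all 32 mice called 7 of 7 in both sexes (27.7% of genes in males, 26.3% in females), and so did the fit of both sexes together, with estimates of 1.25 to 1.7 and 35.5% of genes called. A block for replicate number called 4 in males beside 2.36% of genes. Without NR-treated male Alport mouse 1, 3 were called (Cd74, H2-DMa and H2-DMb1) beside 0.581% of genes. Without NR-treated female Alport mouse 4, 6 were called, all but H2-DMb1, beside 32.8% of genes, and without mouse 3, H2-Aa alone passed beside 25.7%. These comparisons share their NR-treated mice with the comparisons of NR and vehicle.

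In male controls the class II estimates were higher with NR, but none passed the test. Col4a3 did not separate all of these NR-treated controls from Alport mice. H2-Aa was 50, 99.4, 49.1 and 52.4 CPM in NR-treated and 36, 36.3, 36 and 41.6 CPM in vehicle-treated male controls. All 4 NR-treated mice lay above the vehicle-treated ones, with mouse 2 highest. Its log2 fold change was 0.75 (95% interval 0.24 to 1.27, edgeR adjusted p = 0.0948). Over the 7 genes the estimates were 0.11 (H2-DMb1) to 0.75, with 0 of 7 called beside 4.45% of genes, and 4 of 7 without overlap (Cd74, H2-Aa, H2-Eb1 and H2-DMa) beside 7.37%. Unadjusted, 4 of 7 had p under 0.05 in edgeR, DESeq2 and limma-voom alike, beside 23% of genes in edgeR. DESeq2 called 3 (Cd74, H2-Aa and H2-Eb1) beside 11.2% of genes, and limma-voom called 0.

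Mouse 2 was the highest NR-treated male control for each of the 7 genes. Without it the estimates fell to between −0.07 and 0.44, yet 3 genes passed (Cd74, H2-Aa and H2-Eb1), with 5.51% of genes called. In female controls the estimates were −0.15 to 0.15, with 0 of 7 called beside 6.39% of genes, and 0 had an unadjusted p under 0.05 in edgeR, DESeq2 or limma-voom. Whether the sexes differ in this was not tested.

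The NR-genotype interaction, which asks whether NR moved Alport and control mice differently, was −1.4 to −0.42 log2 units in males and −1.11 to −0.72 in females, with 0 of 7 called in either and 0% of genes called. Unadjusted, 5 of 7 had p under 0.05 in males and 0 in females in edgeR, beside 8.83% and 9.24% of genes, 6 and 0 in DESeq2, and 5 and 5 in limma-voom, with 0 called by each. Without NR-treated male Alport mouse 1, 6 of 7 passed in males, all but H2-DMb1, at −1.95 to −0.7 over the 7 genes with 4.92% of genes called.

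Among vehicle-treated controls, the 7 genes were 0.37 to 0.64 log2 units higher in females than in males. H2-DMb1 was the 1 gene called, with 15.4, 15.2, 19.4 and 14.8 CPM in females and 11.2, 14.3, 12.7 and 10.9 CPM in males (log2 fold change 0.42, SE 0.12, edgeR adjusted p = 0.018), where 15.7% of genes were higher. It was also the 1 gene without overlap, beside 14.4% of genes. That call was lost in the fit of all 32 mice and without female mouse 3, male mouse 1 or male mouse 4. Without female mouse 1, which had the lowest value of the females for 6 genes, 5 members passed beside 29.3% of genes. In vehicle-treated Alport mice the sexes differed by −0.11 to 0.05, with 0 of 7 called beside 3.98% of genes and 0 with an unadjusted p under 0.05 in edgeR, DESeq2 or limma-voom.

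The proportions of the 7 genes to each other were tested as ratios to Cd74 in the same mouse, over 6 genes and 3 contrasts with exact permutation within sex. H2-DMb1 fell relative to Cd74 in vehicle-treated Alport mice, from a log2 ratio of −3.09 ± 0.3 in controls to −4.13 ± 0.14 (SD, n = 8 mice each), a difference of −1.04 (exact two-sided permutation p = 0.000408, the smallest possible, adjusted p = 0.00367). H2-DMa fell from −4.26 ± 0.18 to −4.71 ± 0.1, by −0.45, with the same p-values. Both differences had nearly the same size in each sex, at −1.02 and −1.06 for H2-DMb1 and −0.46 and −0.44 for H2-DMa in males and females. Reads of H2-DMb1 can be split with H2-DMb2, and how shared reads were counted is not given in the sources used here. The ratios of H2-DMb1 carry that limit in every contrast. The ratios of H2-Aa, H2-Ab1, H2-Eb1 and Ciita differed by −0.3 to −0.03 and did not pass (exact permutation adjusted p = 0.0771 to 0.658).

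With NR in Alport mice, H2-DMb1 rose relative to Cd74 by 0.32, from −4.13 ± 0.14 to −3.82 ± 0.26 (exact two-sided permutation p = 0.00816, adjusted p = 0.049). This call was lost on leaving out any of 12 of the 16 Alport mice, with differences of 0.25 to 0.37 and exact permutation adjusted p-values of up to 0.105. The 2 calls on vehicle held without each mouse. It was the 1 ratio of 6 past the threshold in that contrast, with differences of 0.19 in males and 0.44 in females. None of the 6 ratios passed for NR in control mice, where H2-DMb1 differed by −0.35 (exact permutation adjusted p = 0.203). Within 1 sex the test of 4 against 4 mice cannot go below 0.0286, and 0 of 18 ratios passed in either sex alone.

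**Figure D3:**
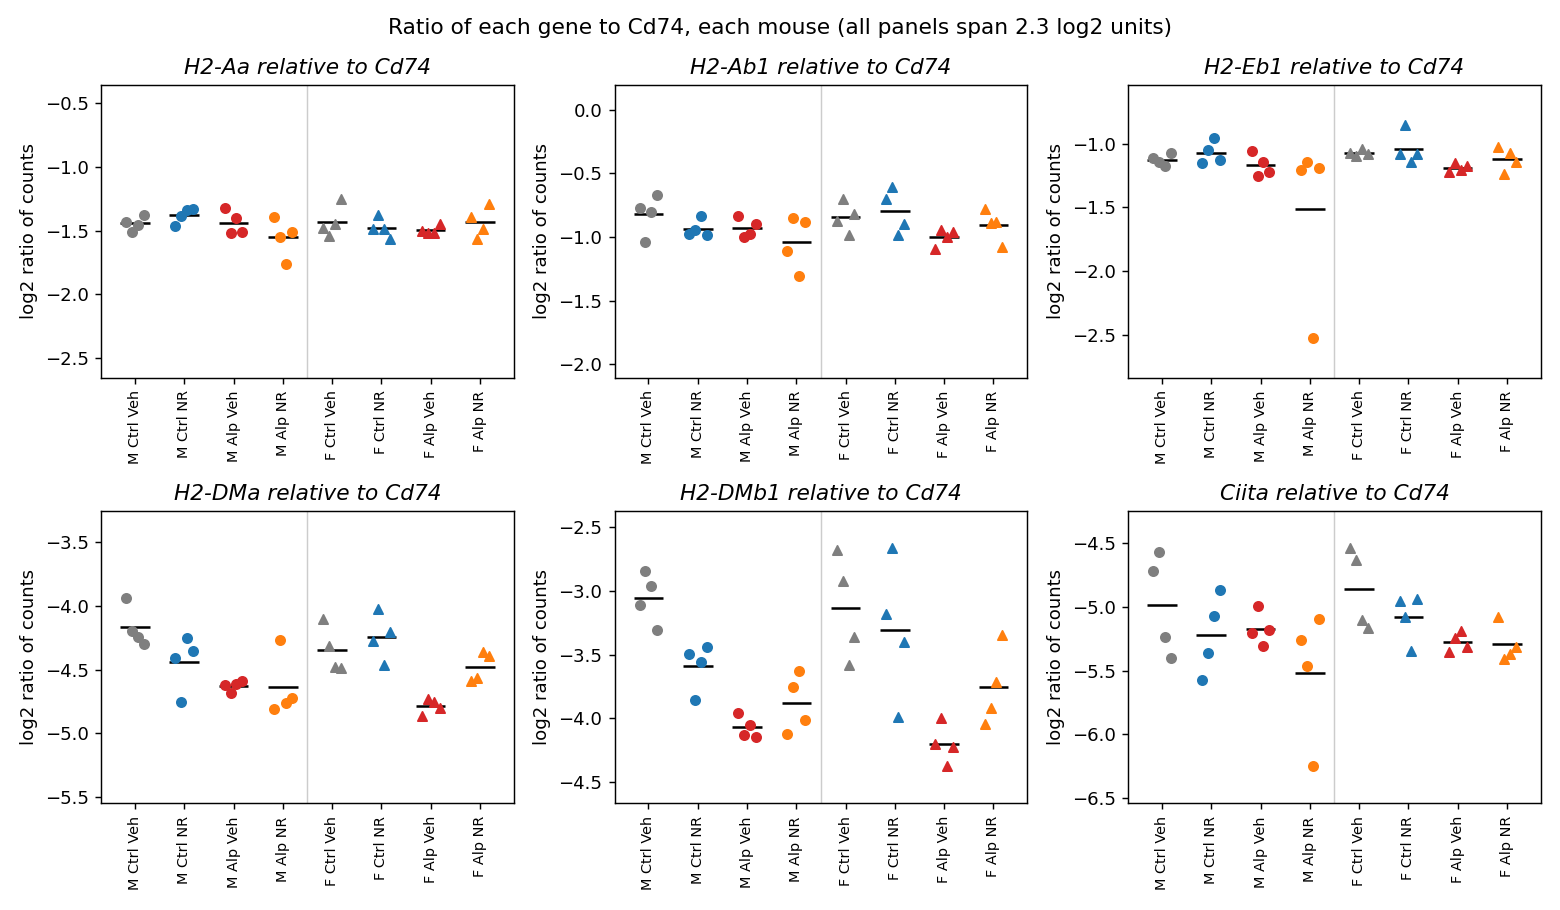
Log2 ratio of each gene's counts to Cd74 counts in the same mouse (pseudocount 0.5), by group, with 1 point per mouse and a line at the mean of 4 mice. H2-DMa and H2-DMb1 sit lower in vehicle-treated Alport mice (red) than in vehicle-treated controls (grey) in both sexes, and 1 NR-treated male Alport mouse lies far below the rest for H2-Eb1.

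Within groups, the 7 genes varied together from mouse to mouse. Across 32 mice, after subtracting group means from log2 CPM, Pearson's r between pairs of the 7 genes was 0.78 to 0.99, with a median of 0.92 over 21 pairs. The medians were 0.7 in control mice and 0.96 in Alport mice, and H2-DMb1 was the least alike, with a mean r of 0.83. These values share library and depth, and the NR-treated Alport groups carried much of the spread, with SDs of log2 CPM of 0.49 to 1.05 in males and 0.84 to 1.26 in females, beside 0.15 to 0.23 and 0.26 to 0.37 in the vehicle-treated Alport groups.

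The 10 genes outside the 7 most like them by this measure (mean r over the 7 genes, 16469 genes, 32 mice) were C1qb, Laptm5 and Itgb2 at 0.92, Mpeg1 and C1qc at 0.91, Lyz2 and C1qa at 0.9, and Nckap1l, Ctss and Pld4 at 0.89, beside a median of −0.01 over all genes. C1qa, C1qb and C1qc encode complement C1q, Lyz2 encodes lysozyme M, Itgb2 the beta 2 integrin of leukocytes, and Ctss cathepsin S, the protease that finishes cutting the invariant chain.

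Genes of other lists are read against all genes tested on vehicle, of which 26.8% were higher and 24% lower in male Alport mice, and 23.9% higher and 21.8% lower in females. The other class II chains were scarce. Of the 5 in the table, 4 were tested and all 4 rose in vehicle-treated Alport mice of both sexes. In NR against vehicle in controls, 2 of the 5 passed the low-count filter in each sex. The rest of the 4 were tested on vehicle through their Alport levels, so their rise is tied to the filter. H2-DMb2, the second beta chain gene of H2-DM, went from 0.426 ± 0.291 to 13.2 ± 3.3 CPM in males (log2 fold change 4.97, edgeR adjusted p = 3.11e-07) and rose by 4.03 in females. H2-Oa and H2-Ob, the chains of H2-DO, an inhibitor of H2-DM made mainly by B cells, rose by 2.33 and 2.11 in males and 1.88 and 1.42 in females. H2-Eb2 rose by 2.75 and 1.96. None of the 4 passed for NR in Alport mice.

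The factors that hold Ciita on the promoter moved little. Of 7 tested, Rfx5 rose by 0.79 in males and 0.67 in females on the log2 scale and Nfya by 0.31 and 0.47, Nfyc fell by 0.45 and 0.34, and Rfxank, Rfxap, Nfyb and Creb1 did not pass in either sex, at −0.14 to 0.15. The median log2 fold change of this list was −0.04 in males and −0.03 in females, beside 0 over all genes.

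Of 10 genes of endosomal antigen processing, 4 rose and 1 fell in males and 5 rose and 1 fell in females. Ctss rose by 3.75 and 3 log2 units, Ifi30, the thiol reductase of lysosomes, by 0.53 and 0.5, and Ctsb, cathepsin B, by 0.32 and 0.26, while March8, a ubiquitin ligase that lowers surface class II, fell by 0.54 and 0.44. All 5 tested genes of T cell costimulation rose in both sexes. Cd86, a ligand of CD28, rose by 2.26 in males and 2.04 in females, Cd83 by 2.57 and 2.44, Cd40 by 1.24 and 1.51, Icosl by 1.32 and 0.64, and Cd274, which encodes PD-L1, by 0.67 and 0.71.

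Of 9 tested genes of the interferon gamma pathway, which induces Ciita, 8 rose in each sex, with Gbp2 at 2 and 1.9, Ifngr2 at 1.42 and 1.14, and Ifngr1 at 1.04 and 1.28. Of 14 MHC class I pathway genes, 11 rose in males and 12 in females, including Tap1, a peptide transporter subunit, at 1.74 and 1.52 and B2m, the class I light chain, at 1.34 and 1.19. The list medians were 1.42 and 1.15 for interferon gamma and 1.27 and 1.23 for class I, below the 3.01 and 2.44 of the 7 class II genes.

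Markers of antigen-presenting cells moved with the class II genes. Of 12 macrophage markers, 11 rose in each sex (median log2 fold change 3.46 in males and 2.7 in females), with C1qb at 3.31 and 2.69 and Cd14 at 3.16 and 2.84, while Mertk fell by 0.29 in females. The macrophage sum was 163 to 191 CPM in vehicle-treated male controls and 671 to 883 CPM in vehicle-treated male Alport mice, and 189 to 266 and 546 to 925 CPM in females. Of 10 dendritic cell markers 9 rose in each sex, with Itgax at 3.48 and 2.59 and Flt3 at 2.3 and 1.81, and their sum went from 13.9 to 18 CPM in male controls to 45.9 to 72.2 CPM in male Alport mice. None of these markers was at 0 in a whole group, and their part in the class II result was not tested.

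T cell markers rose for 8 of 8 tested genes in males and 8 of 9 in females, with sums of 4.38 to 8.13 CPM in vehicle-treated male controls and 15.5 to 32.2 CPM in vehicle-treated male Alport mice. B cell markers rose for 3 of 5 tested in males and 3 of 6 in females, with sums of 4.03 to 6 and 5.98 to 16.9 CPM. In NR against vehicle in controls, 4 T cell markers passed the low-count filter in each sex, and 4 B cell markers in males and 5 in females. The remaining markers were tested on vehicle through their Alport levels, so the shares that rose are partly set by the filter. Proximal tubule markers fell for 8 of 8 in each sex (medians −1.11 and −0.95), and tubule injury markers rose for 5 of 5 (medians 6.22 and 5.21). Endothelial markers rose for 4 of 5 in males and 3 of 5 in females, above the 26.8% and 23.9% of all genes that rose. Of 6 markers of other nephron segments 2 rose and 1 fell in each sex, near the shares over all genes.

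In both NR-treated Alport groups, the mice had the same order by the macrophage sum as by the class II sum, whereas in NR-treated female controls the highest and lowest mice differed between the sums. In NR-treated male Alport mice the macrophage sum was 306 to 1250 CPM, and in females 773, 589, 332 and 224 CPM for mice 1 to 4, where the sum of the 7 class II genes was 2030, 1220, 638 and 320 CPM. The ratio of the class II sum to the macrophage sum was 1.34 to 1.59 in vehicle-treated male controls and 2.57 to 2.78 in vehicle-treated male Alport mice, and 1.3 to 2.2 and 2.52 to 2.98 in females. NR-treated Alport mice had ratios of 2.14 to 3.03 in males and 1.43 to 2.63 in females. These ratios were added after the values had been seen and carry no test.

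**Figure D4:**
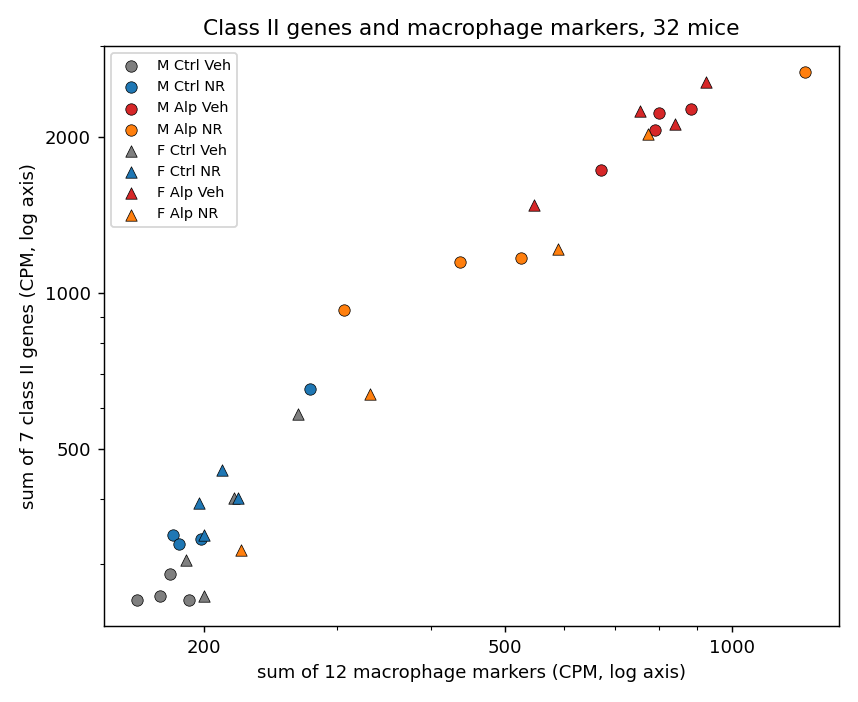
Sum of the 7 class II genes against the sum of 12 macrophage markers in each of 32 mice, both in CPM on log axes (circles, males; triangles, females). Vehicle-treated controls (grey) lie at 163 to 266 CPM of macrophage markers, vehicle-treated Alport mice (red) at 546 to 925 CPM, and NR-treated Alport mice (orange) from 224 to 1250 CPM.

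With NR in Alport mice, 0 genes passed in each of the 14 lists in both sexes by edgeR, and 7 of 110 list genes in males and 29 of 111 in females had an unadjusted p under 0.05, beside 5.01% and 16.5% of all genes tested. With NR in male controls, Ctss rose by 1.27 (edgeR adjusted p = 0.0112), and 3 of 12 macrophage markers passed, C1qa at 1, C1qb at 0.89 and Cd14 at 1.09 (edgeR adjusted p = 0.0281, 0.0424 and 0.0261). All 5 endothelial markers and 2 of 5 injury markers also rose there, and 1 of 8 proximal tubule markers fell, in a comparison where 2.97% of genes rose and 1.48% fell. The macrophage sum in that group was 182 to 276 CPM, with mouse 2 highest, beside 163 to 191 CPM in vehicle-treated male controls.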

How the data were processed

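Kidney cortex RNA of 32 mice was measured by bulk RNA-Seq of poly(A) RNA, and replicates are separate mice. The authors aligned and processed the reads with BioJupies; the aligner, its version and the strand are not given in the sources used here, and the submitters' processing notes name the build mm10 (GRCm38). The counts per gene symbol were used as deposited by the authors. The authors also gave the values as log10(CPM + 1), which equal that transform of the counts to within 4.44e-16 and were only checked. Gene names are those of the table.

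Tests used edgeR 4.0.16 under R 4.3.3 (filterByExpr with a minimum count of 10, TMM, robust dispersion), in 1 fit per comparison with its own mice. Total counts were 16621944 to 27778797, and the 7 genes had 50 to 33774 counts per mouse. For the scarcest genes in control mice (H2-DMa and Ciita), counting error was about as large as the spread between mice in some groups only. These were vehicle-treated males for H2-DMa and NR-treated females for both genes. In the other control groups the spread was larger. Ratios to Cd74 used log2 counts with a pseudocount of 0.5 and exact permutation within sex (4900 assignments), adjusted over 18 tests. Alternatives were DESeq2 1.42.0, limma-voom (limma 3.58.1), 1 fit of all 32 mice, RLE normalization, every gene kept, genes with 10 or more counts in all mice, a replicate block, leaving out each mouse and, added after seeing the data, both sexes in 1 fit. Same-numbered mice were checked for pairing: 40 correlations of their deviations were −0.167 to 0.262, with 9 over 0.1. These correlations cannot settle whether the numbers pair mice.

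The 7 genes and the 14 lists were chosen with earlier results of these data known. Named genes are the 7 members, the other class II chains, promoter factors and costimulation genes, up to 4 genes of each other list by smallest p in vehicle-treated males, and the 10 most alike genes; Mertk was named after their values were seen. Sequences come from RefSeq (GRCm38.p6) and positions from GENCODE M21. Shared 31-base words were counted in GENCODE M21 transcripts. Figures were drawn with matplotlib 3.10.9 in Python 3.11.15.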

Additional observations from a re-analysis of the deposited data

Results flagged for a closer look

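Of 56 groups of 4 mice (7 genes in 8 groups), 9 held a mouse whose gap to its nearest neighbour on the log2 CPM scale took most of the group's range by Dixon's test, which chance alone gives in about 1 of 20 groups. Of these, 6 were in NR-treated males. Cd74 in NR-treated male Alport mouse 1 was at 10.12 log2 CPM (1110 CPM, beside a median of 463 CPM in the others). NR-treated male control mouse 2 was far above its group for Cd74 at 8.02, H2-Aa at 6.64, H2-Ab1 at 7.07, H2-Eb1 at 6.97 and H2-DMa at 3.28 log2 CPM. The genes of a mouse share its library, so these 5 are 1 observation of that mouse.

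The other 3 were single genes. H2-Aa in vehicle-treated male control mouse 4 was at 5.38 log2 CPM (41.6 CPM, beside a median of 36 CPM), H2-DMb1 in vehicle-treated female control mouse 3 was at 4.28 log2 CPM (19.4 CPM, beside 15.2 CPM), and H2-Ab1 in NR-treated female control mouse 4 was at 6.18 log2 CPM (72.6 CPM, beside 93.9 CPM). The causes were not tested.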

How the results depend on the processing

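The 7 calls in vehicle-treated Alport against control mice held in each sex under every alternative, leave-one-out included. For Alport against control mice on NR, where 0 were called, males had 7 by DESeq2, 7 with all 32 mice in the fit, 2 with no low-count filter and 7 with both sexes together, and females had 5, 7, 0 and 7. The 2 in males with no low-count filter stood beside 0.13% of genes. For NR in male controls DESeq2 called 3 where edgeR called 0. For female against male vehicle-treated controls, 1 call became 2 by DESeq2 (34.3% of genes called) and 0 with all 32 mice (17%). It became 2 with no low-count filter (20.3%) and 2 with 10 counts in every mouse (33.8%). Leaving out 1 mouse gave 0 to 5 calls for NR in male Alport mice, 0 to 3 for NR in male controls, 0 to 3 in males and 0 to 6 in females for Alport against control on NR, 0 to 5 for female against male controls, and 0 to 6 for the male NR-genotype interaction. For the ratios to Cd74, 3 past the threshold became 2 to 4 without 1 mouse. They became 0 in males alone and 0 in females alone, where the smallest possible p is 0.0286 so that a few ratios at that value cannot pass adjustment over 18 tests, and this says nothing about stability. With same-numbered mice as a replicate block or as pairs, Alport against control males on NR went from 0 to 4 calls, and the block changed no other gene count. The ratios went from 3 to 0 with 8 pairs, whose smallest possible p of 0.00781 leaves little room after adjustment. Whether the numbers pair mice is not settled. The causes of the changed gene counts were not tested.

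Estimates near 0 changed sign. For NR in female controls, H2-Aa was 0.04 by limma-voom and 0.04 with the replicate block, and with both sexes together H2-Aa was 0.35, H2-DMb1 0.02 and Ciita 0.11. Without 1 mouse, NR in female controls gave −0.13 to 0.32 for Cd74, −0.2 to 0.24 for H2-Aa, −0.06 to 0.32 for H2-Ab1, −0.11 to 0.36 for H2-Eb1, −0.24 to 0.07 for H2-DMb1 and −0.22 to 0.04 for Ciita. Female against male vehicle-treated Alport mice gave −0.06 to 0.19 for Cd74, −0.12 to 0.13 for H2-Aa, −0.1 to 0.09 for H2-Ab1, −0.08 to 0.15 for H2-Eb1, −0.2 to 0.01 for H2-DMa and −0.14 to 0.07 for Ciita, and NR in male controls gave −0.07 to 0.2 for H2-DMb1. None of these passed. The 95% intervals for NR in female Alport mice reached from −2.18 to 0.26 log2 units over the 7 genes, which limits what 4 mice per group can show.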
